A study of Homo sapiens with 8 samples.

Results

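A set of 10 genes known as p53 targets in cell cycle arrest, stress and cell death was followed in THP-1 foam cells given auranofin or vehicle. They were CDKN1A, MDM2, GDF15, PMAIP1, BBC3, BAX, FAS, SESN1, ZMAT3 and GADD45A, taken by symbol from a table of raw counts, and all 10 matched a row of its 62700. THP-1 is a human monocytic leukaemia line. All 8 libraries came from THP-1 cells differentiated to macrophages by PMA, a phorbol ester (50 ng/mL, 72 h), and loaded for 48 h with acetylated low-density lipoprotein (AcLDL), which fills macrophages with cholesteryl ester and makes foam cells of them. The vehicle group (4 libraries) had DMSO below 0.1% by volume and the auranofin group (AF, 4 libraries) had 0.5 µM of this gold compound, known to inhibit thioredoxin reductase. The sample protocol puts the drug 24 h ahead of the lipid load and keeps it on to the end, while the series' design text puts it after the load. All libraries come from 1 cell line, and no label says that they were separate cultures. In each group libraries 1 and 2 share a name stem, as do libraries 3 and 4. The p-values therefore measure only how far these libraries differ among themselves, and that may be technical.

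The p53 pathway answers DNA damage and other stresses. It raises genes that stop the cell cycle (CDKN1A, GADD45A), limit the pathway itself (MDM2), restrain growth signalling and oxidants (SESN1) and start death through mitochondria (BAX, BBC3, PMAIP1) or a surface receptor (FAS). Most of these genes are also known to answer to other factors, among them ATF4 and DDIT3 of the integrated stress response, EGR1 and FOXO proteins.

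Depth was 19336073 to 32325981 counts per library. AF library 1 stood apart, with 58.4% of its counts in protein-coding genes against 89.7% to 90.1% in the other 7 libraries. Levels are given in CPM, a gene's counts scaled to a common library total, here with TMM composition factors that allow for this share. Of 12 macrophage markers, 4 were higher and 3 lower with auranofin, where 7.62% of all genes tested were higher and 7.81% lower. Group means of 11 of them were from 101 CPM (FCGR1A, AF) upward. CD68 had few counts, below 1 CPM in 7 libraries and at 4.63 CPM in DMSO library 3. The cause was not tested, so these counts do not show how strongly the cells express CD68. Of 8 tested markers of immature or cycling THP-1 cells 5 were lower and 0 higher with auranofin, beside the same shares of all genes. Their summed level was 1155 to 1278 CPM in DMSO and 808 to 951 CPM in AF. CD34 had 0 counts in every library. In bulk RNA, fewer cells of a kind and less RNA per cell cannot be told apart.

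With auranofin GDF15 and PMAIP1 rose, and the other 8 genes did not pass the test. Over all genes, 7.62% of the 17535 genes tested were called higher and 7.81% lower, 15.4% in all (edgeR quasi-likelihood test, Benjamini-Hochberg adjusted p under 0.05). Of the 10 genes, all of which were tested, 2 were called higher and 0 lower. At an unadjusted p under 0.05, BBC3 was also higher and BAX lower. The AF and DMSO values did not overlap for 3 of the 10 genes, GDF15, PMAIP1 and BAX, where 19.5% of all genes tested had no overlap. The median log2 fold change was 0.07 for the 10 genes and 0.01 for all genes tested, and 7 of the 10 had a value above 0.

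**Figure D1:**
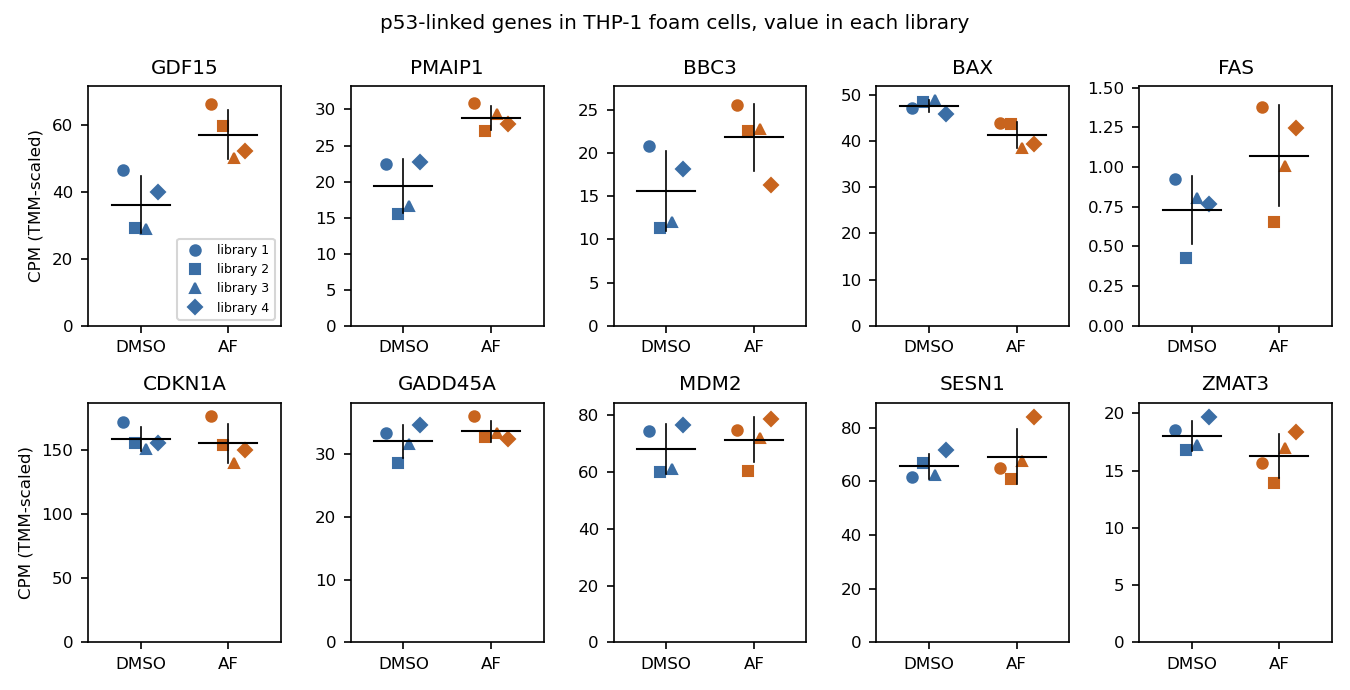
Level of each of the 10 genes in each library, in TMM-scaled CPM (vertical axes start at 0), by group; symbols give the library number, the horizontal bar the mean and the vertical bar 1 SD over 4 libraries. All AF values of GDF15 and PMAIP1 lie above all DMSO values, those of BAX lie below, and the other 7 genes overlap.

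GDF15 encodes a secreted stress cytokine of the TGF-beta superfamily. It stood at 46.5, 29.3, 28.9 and 40.0 CPM in DMSO libraries 1 to 4 and at 66.3, 59.6, 50.1 and 52.1 CPM in AF libraries 1 to 4. The lowest AF library was thus above the highest DMSO library, although the DMSO libraries themselves differed by 1.605-fold. The means were 36.2 ± 8.57 and 57.0 ± 7.37 CPM (SD, n = 4 each), a log2 fold change of 0.66 ± 0.14 (SE; 95% interval 0.37 to 0.94; edgeR adjusted p = 0.00475). GDF15 (ENSG00000130513.6) spans chromosome 19 from 18374731 to 18389176 on the plus strand of GRCh38, and MIR3189, a microRNA in its intron, had too few counts to be tested.

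PMAIP1 encodes NOXA, a BH3-only protein that binds MCL1 and so favours the opening of the mitochondrial outer membrane. Its DMSO libraries 1 to 4 stood at 22.5, 15.6, 16.7 and 22.7 CPM and its AF libraries at 30.9, 26.9, 29.4 and 28.0 CPM. The AF libraries were close to each other and all above DMSO. The mean rose from 19.4 ± 3.77 to 28.8 ± 1.72 CPM (SD, n = 4 each), a log2 fold change of 0.57 ± 0.13 (SE; 95% interval 0.30 to 0.84; edgeR adjusted p = 0.00695). PMAIP1 (ENSG00000141682.11) spans chromosome 18 from 59899948 to 59904306 on the plus strand. The calls of both GDF15 and PMAIP1 held when any 1 of the 8 libraries was left out (adjusted p up to 0.0205 and 0.0281), with the libraries of a name stem summed, and with totals of protein-coding counts alone (0.00710 and 0.0110). They were lost with library totals alone (0.0890 and 0.262), a scaling that AF library 1 enters with its low protein-coding share and that moved the median of all genes tested to -0.14.

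BBC3 encodes PUMA, another BH3-only protein, which binds all the anti-apoptotic BCL2 proteins. It stood at 20.8, 11.4, 12.0 and 18.1 CPM in DMSO and at 25.5, 22.5, 22.8 and 16.3 CPM in AF. AF library 4 lay below 2 of the DMSO libraries, and the other 3 AF libraries lay above all of DMSO. The log2 fold change was 0.48 ± 0.18 (SE; 95% interval 0.09 to 0.87) with an adjusted p of 0.0871 in edgeR. It passed when DMSO library 1 (0.66, adjusted p = 0.0260) or AF library 4 (0.60, adjusted p = 0.0261) was left out. BBC3 (ENSG00000105327.17) spans chromosome 19 from 47220822 to 47232766 on the minus strand.

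BAX encodes the effector that forms pores in the mitochondrial outer membrane once BH3-only proteins such as PUMA engage it. It was not called, and its values lay the other way, at 47.1, 48.4, 48.8 and 45.8 CPM in DMSO and 43.8, 43.8, 38.5 and 39.4 CPM in AF. All AF values lay below all DMSO values, but the gap was small. The log2 fold change was -0.20 ± 0.07 (SE; 95% interval -0.34 to -0.06), with an adjusted p of 0.0558 in edgeR and 0.0345 in DESeq2. BAX (ENSG00000087088.19) spans chromosome 19 from 48954815 to 48961798 on the plus strand.

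FAS encodes the death receptor for FAS ligand and was the least abundant of the 10, with 11 to 32 counts per library. It stood at 0.922, 0.426, 0.808 and 0.768 CPM in DMSO and 1.38, 0.651, 1.01 and 1.25 CPM in AF. The groups overlapped, and the log2 fold change of 0.51 ± 0.31 (SE; edgeR adjusted p = 0.290) had a 95% interval from -0.15 to 1.17. At this depth a rise of the size seen in GDF15 could not be told from no change in FAS. Exons of ACTA2 on the other strand overlap 8.93% of the exon bases of FAS, and whether the authors' counting used strand is not given in the sources used here. FAS (ENSG00000026103.21) spans chromosome 10 from 88990582 to 89015785 on the plus strand.

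CDKN1A, which encodes the CDK inhibitor p21, was the most abundant of the set and did not pass the test. It stood at 172, 155, 151 and 155 CPM in DMSO and 176, 154, 140 and 150 CPM in AF. The values interleave, and the log2 fold change was -0.03 ± 0.07 (SE; edgeR adjusted p = 0.807). Its 95% interval, -0.18 to 0.12, lies below the point estimates of GDF15 and PMAIP1. MDM2, which encodes the ubiquitin ligase of p53, stood at 74.6, 60.1, 60.9 and 76.7 CPM in DMSO and at 74.7, 60.2, 71.9 and 78.8 CPM in AF. Each group held both low and high MDM2 libraries, and the log2 fold change was 0.07 (95% interval -0.13 to 0.27). CDKN1A (ENSG00000124762.13) spans chromosome 6 from 36676460 to 36687339 and MDM2 (ENSG00000135679.23) chromosome 12 from 68808176 to 68850686, both on the plus strand. DINOL, a noncoding RNA gene that overlaps 4.79% of the CDKN1A exon bases on the other strand, had 0 counts in each DMSO library and 0, 1, 2 and 2 counts in AF libraries 1 to 4.

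GADD45A, SESN1 and ZMAT3 were also not called. GADD45A, a growth arrest gene whose protein binds PCNA and stress kinases, ranged from 28.5 to 34.6 CPM in DMSO and 32.4 to 36.0 CPM in AF (log2 fold change 0.07, 95% interval -0.12 to 0.26). SESN1, whose protein restrains mTORC1, ranged from 61.6 to 71.7 CPM in DMSO and 60.7 to 83.9 CPM in AF, with AF library 4 the highest (0.08, 95% interval -0.11 to 0.26). ZMAT3, an RNA-binding protein gene, ranged from 16.8 to 19.7 CPM in DMSO and 13.9 to 18.4 CPM in AF (-0.15, 95% interval -0.37 to 0.07). The adjusted p-values were 0.639, 0.595 and 0.346 (edgeR). GADD45A (ENSG00000116717.12) lies on chromosome 1 from 67685061 to 67688338 on the plus strand. SESN1 (ENSG00000080546.13) lies on chromosome 6 from 108986437 to 109094819 and ZMAT3 (ENSG00000172667.10) on chromosome 3 from 179017223 to 179072279, both on the minus strand. A p above the threshold does not show that auranofin left a gene unchanged. For CDKN1A, MDM2, GADD45A, SESN1, ZMAT3 and BAX, however, the upper end of the interval stayed below the lower end of that of GDF15.

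**Figure D2:**
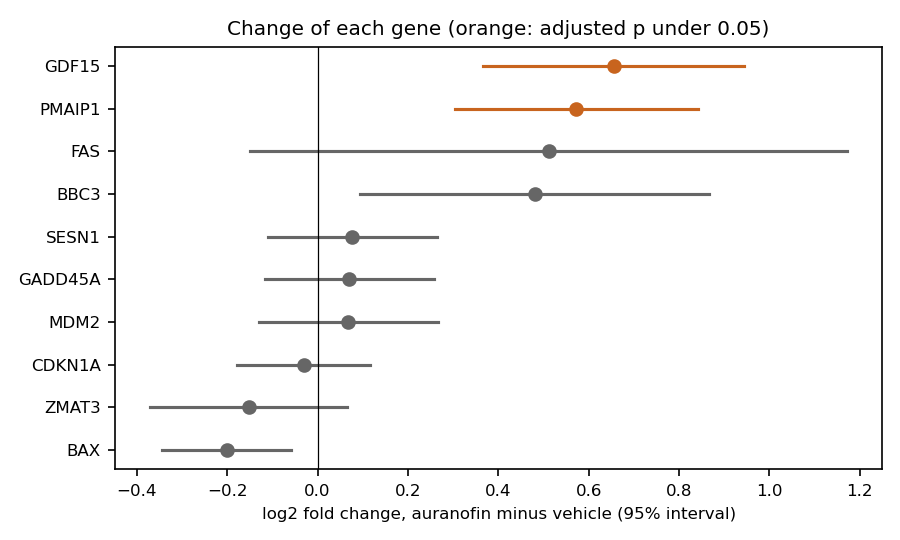
Log2 fold change of each gene, auranofin minus vehicle, with its 95% interval from the edgeR fit; orange marks an adjusted p under 0.05. GDF15 (0.66) and PMAIP1 (0.57) are marked, the intervals of BBC3 and BAX also leave out 0 before adjustment, and that of FAS is the widest.

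Set against exon length (CPM per kilobase of the union of GENCODE 29 exons), CDKN1A led in DMSO at 51.9 ± 3.08, above every library of the next gene. BAX (18.4 ± 0.521), GDF15 (17.3 ± 4.11), GADD45A (15.5 ± 1.29) and SESN1 (12.8 ± 0.899) followed, and each overlapped its neighbour in this order. PMAIP1 came next at 8.66 ± 1.69, apart from SESN1 above and MDM2 below. MDM2 (5.12 ± 0.660) and BBC3 (4.90 ± 1.46) overlapped, and ZMAT3 (1.87 ± 0.135) and FAS (0.172 ± 0.0502) each stood apart from the gene before them (SD, n = 4). In AF the level of GDF15 was 27.3 ± 3.53, where every library exceeded every BAX library (16.0 ± 1.10). The union counts exons that these cells may not use, so the levels are approximate.

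Ratios of 2 genes within a library do not depend on how the library is scaled. The log2 ratio of PMAIP1 to BAX was -1.32 ± 0.322 in DMSO and -0.52 ± 0.130 in AF, a difference of 0.80, with all 4 AF libraries above all DMSO libraries. The mean log2 ratio of GDF15 to CDKN1A was higher in AF by 0.71 and that of PMAIP1 to CDKN1A by 0.63, each again with 4 of 4 AF libraries above all DMSO. The ratio of BBC3 to BAX differed by 0.72, with 3 of 4 AF libraries above all DMSO. These and the ratios given for relatives, 12 in all, pair genes whose values were already known, so they are a description and carry no test.

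**Figure D3:**
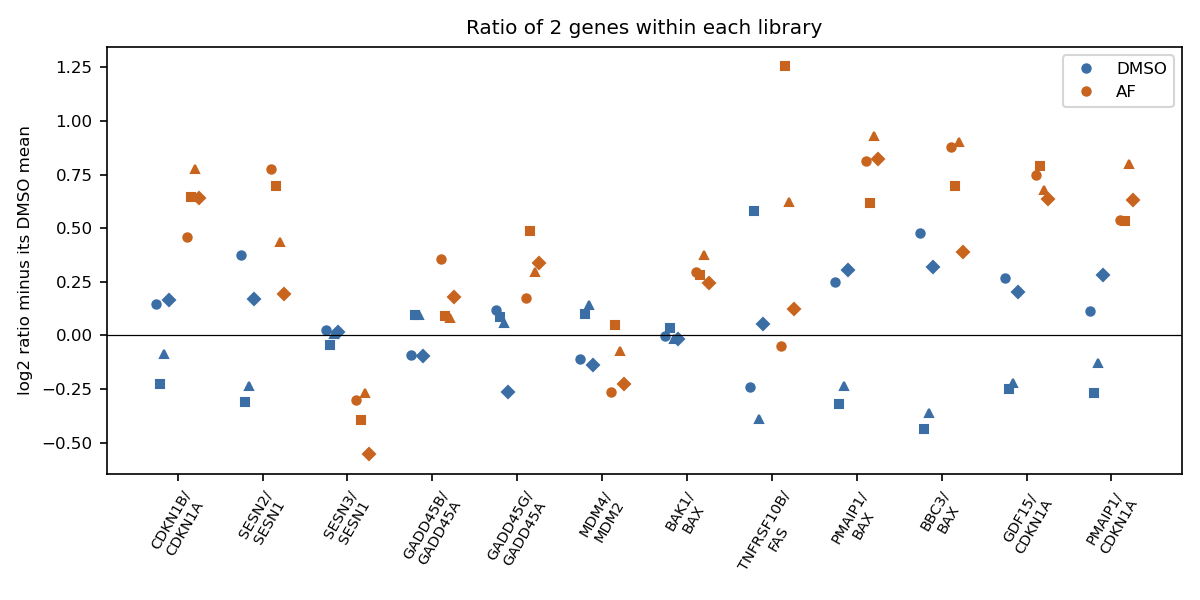
Log2 ratio of 2 genes in each library, minus the mean of the 4 DMSO libraries for that ratio; blue DMSO, orange AF, symbols as library numbers 1 (circle), 2 (square), 3 (triangle) and 4 (diamond). For GDF15 to CDKN1A, PMAIP1 to CDKN1A and PMAIP1 to BAX all AF points lie above all DMSO points.

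By their counts, DMSO libraries 1 and 4 (chi-square per degree of freedom 4.92) and DMSO libraries 2 and 3 (2.93) were the closest, a division that no label gives. AF libraries 2 and 3 were also close (4.47), but AF library 4 was nearer to AF library 3 (12.1) than to AF library 1 (587), which stood apart from all others. These values come from raw counts and do not allow for the low protein-coding share of AF library 1. They therefore cannot say which AF library it resembles, or whether AF divides as DMSO does. The fits below take the same library numbers in both groups. The division was chosen from these same counts, so the fits describe the libraries and are no independent check. In DMSO, libraries 1 and 4 were the higher ones for GDF15, PMAIP1, BBC3 and MDM2. For the same AF level, a higher DMSO level gives a smaller fold change in libraries 1 and 4 than in libraries 2 and 3. Within libraries 1 and 4 the log2 fold change was 0.45 for GDF15, 0.38 for PMAIP1 and 0.09 for BBC3. Within libraries 2 and 3 it was 0.92, 0.81 and 0.96. GDF15 and PMAIP1 kept their direction in both pairs but were not called in libraries 1 and 4 alone (edgeR adjusted p = 0.201 and 0.134), a fit with 2 libraries per group that includes AF library 1. BAX was at -0.17 and -0.24 on the log2 scale, and CDKN1A was near 0 in both (-0.01 and -0.06). SESN1 was at 0.15 and -0.01.

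**Figure D4:**
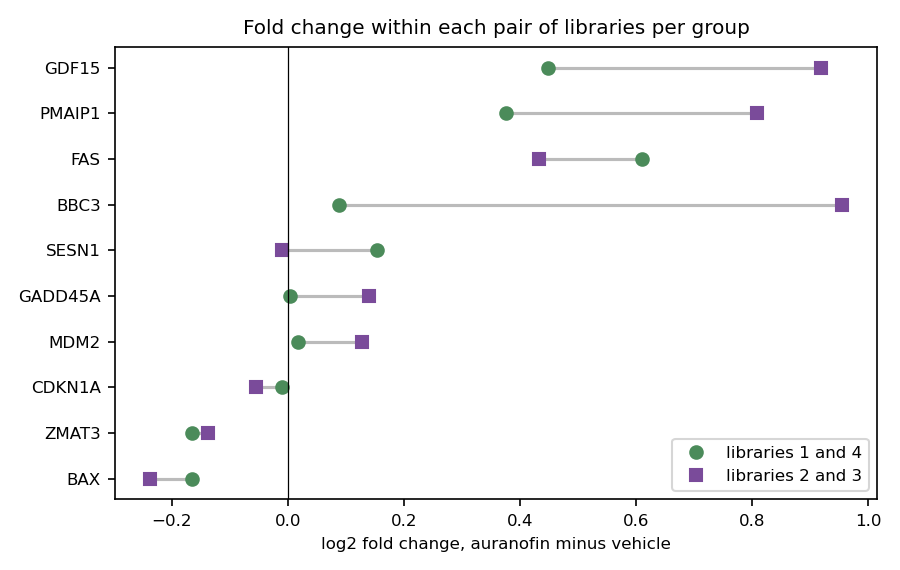
Log2 fold change of each gene, auranofin minus vehicle, fitted in libraries 1 and 4 of each group alone (green circles) and in libraries 2 and 3 alone (purple squares). BBC3 differs most between the pairs (0.09 and 0.96), and BAX and ZMAT3 are below 0 in both. The division was taken from the DMSO counts and is no independent check.

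Short stretches before the start sites are shown for the genes whose levels rose or leaned upward, and for 2 that did not pass and hold a p53 motif there. They come from RefSeq windows of 250 bases before each annotated start (GRCh38.p14), which were found for 9 of the 10 genes. No window was matched for GADD45A. Capitals mark the motif. Each line is 30 bases, 5′ to 3′ on the gene's own strand.
PMAIP1, chr18:59899929-59899958, plus strand, CRE core on the opposite strand: ctagtttccctaCGTCAccagggaagttct
GDF15, chr19:18386051-18386080, plus strand, FOXO motif: ggtcattggagTGTTTACtctgcaggcagg
GDF15, chr19:18386117-18386146, plus strand, TATA box: aagtccggggacTATAAAggccggtccggc
BBC3, chr19:47232762-47232791, minus strand, AP-1 motif: gcactggaaggTGAGTCActctggtgaggc
SESN1, chr6:109009018-109009047, minus strand, p53 decamer: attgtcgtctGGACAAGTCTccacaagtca
FAS, chr10:88991299-88991328, plus strand, p53 decamer: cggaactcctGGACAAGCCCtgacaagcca

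Both strands of each window were searched. MDM2 had 4 windows, FAS and SESN1 3 each and ZMAT3 2, and a match in any of them counts for the gene. The shares below are per single window, so counts of genes run higher and cannot be set directly against them. The CRE core TGACG, bound by ATF and CREB factors, lay 55 to 51 bases before the PMAIP1 start and occurs in 21.2% of the 35116 RefSeq windows of this length. It was found for 3 of the 9 genes, also for BAX, 134 to 130 bases before the start, and SESN1, neither of them called. The FOXO motif TGTTTAC lay 96 to 90 bases before the GDF15 start (2.98% of windows), and its TATA box (TATAAA) 29 to 24 bases before it (10.7%). The AP-1 motif TGANTCA lay 113 to 107 bases before the BBC3 start (6.57%) and was also found for MDM2 and FAS, neither of them called. The p53 decamer, 1 of the pair that makes up a full p53 site, was found for 2 of the 9 genes (5.57% of windows), 49 to 40 bases before 1 of the SESN1 starts and 122 to 113 bases before 1 of the FAS starts. The full CRE TGACGTCA, the ATF4-CEBP composite TGATGNAA, the EGR1 motif GCGTGGGCG and the NF-kB motif were in none of the 9. The GC box GGGCGG was in 8 of 9 (42.6% of windows) and the NRF2 core TGACNNNGC in 4 (10.9%). In MDM2 the AP-1 and NRF2 matches overlap, and in SESN1 a CRE core and an NRF2 match do. These are letter matches in a short window, and the known p53 sites of several of these genes lie elsewhere.

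TP73, a transcription factor gene of the p53 family, fell from 8.44 ± 1.22 to 5.60 ± 0.564 CPM (SD, n = 4; log2 fold change -0.60 ± 0.13; adjusted p = 0.00515), and TP63, with 0 to 8 counts per library, was too low to test. MDM4, the partner and relative of MDM2, was at 58.9 ± 2.05 and 56.5 ± 2.86 CPM (-0.06, 95% interval -0.18 to 0.07), and its log2 ratio to MDM2 differed by -0.13.

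Of 21 tested genes of the p53 family and its regulators, 1 rose and 2 fell, where 15.4% of all genes tested were called, and the median log2 fold change was -0.05. PRKDC, the DNA-dependent protein kinase that acts at double-strand breaks, fell by 0.50 ± 0.06 on the log2 scale (edgeR adjusted p = 0.000161). TP53BP2, whose protein steers p53 towards death genes, rose by 0.33 ± 0.05 (adjusted p = 0.000404). The damage kinases ATM, ATR, CHEK1 and CHEK2 and the acetylases EP300 and CREBBP were not called.

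p53 targets outside the set moved both ways. Of 40 tested, 8 rose and 5 fell, where 15.4% of all genes tested were called, and the median log2 fold change was 0.14. The 13 calls became 8 without DMSO library 2 or without AF library 2, and 3 with library totals alone. Over the whole table the calls also fell, from 2705 to 1616, 2176 and 883 in the same order. TNFRSF10B, the TRAIL death receptor DR5, had the smallest p of them and rose from 50.6 ± 6.75 to 104 ± 8.66 CPM (SD, n = 4; log2 fold change 1.03 ± 0.09; adjusted p = 4.68e-06). Its DMSO libraries ranged from 44.1 to 57.1 CPM and its AF libraries from 95.3 to 111 CPM. The polo-like kinase gene PLK2 rose by 1.75 ± 0.22 from a low level of 1.27 ± 0.340 CPM. The anti-proliferative gene BTG1 rose by 0.41 ± 0.07 and the diacylglycerol kinase gene DGKA by 0.54 ± 0.11. TP53INP1, a stress gene of autophagy and death, fell by 0.49 ± 0.11. The other 27 tested targets were not called.

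**Figure D5:**
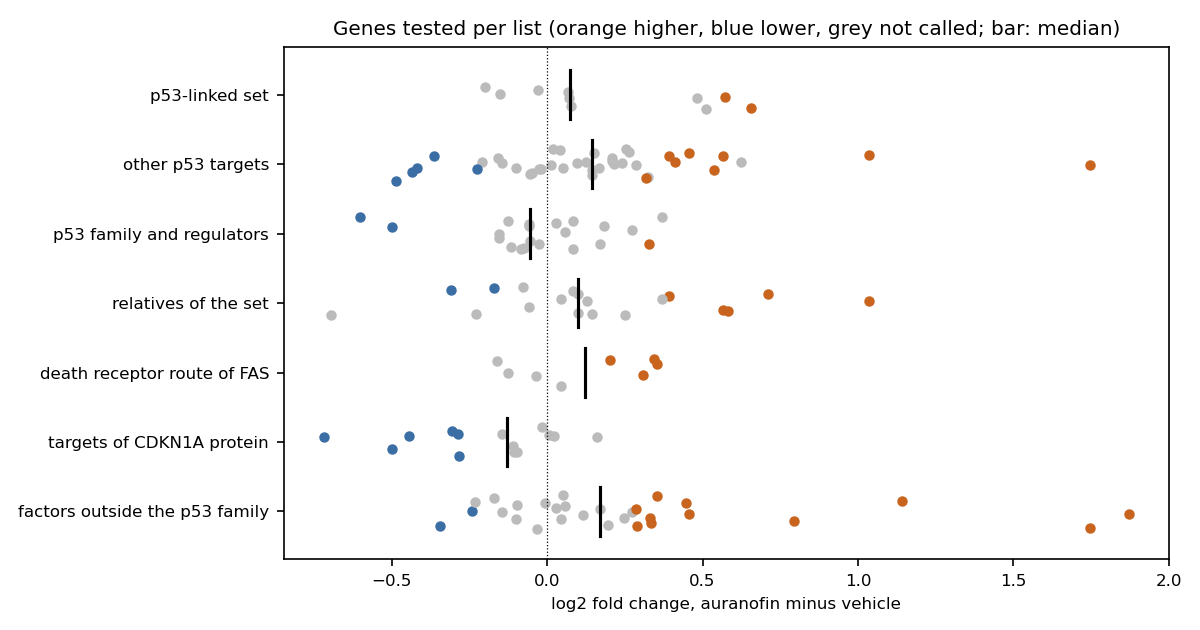
Log2 fold change, auranofin minus vehicle, of each tested gene by list; orange called higher, blue called lower, grey not called, black bar the list's median, vertical scatter only separates points. The p53-linked set has 2 orange points and a median of 0.07, and the list of CDKN1A protein targets has 6 blue points and no orange ones.

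Of 19 tested relatives of the 10 genes, 5 rose and 2 fell, where 15.4% of all genes tested were called, and the median log2 fold change was 0.10. Among the risers, TNFRSF10B and SESN2 are also counted with the p53 targets outside the set, so the counts of these lists are not separate. CDKN1B, the gene of the CDK inhibitor p27, rose from 21.6 ± 3.64 to 32.3 ± 0.521 CPM (SD, n = 4; log2 fold change 0.58 ± 0.11; edgeR adjusted p = 0.00313), with AF libraries at 31.5 to 32.7 CPM and DMSO libraries at 25.7 CPM or less. Its mean log2 ratio to CDKN1A was higher by 0.63 in AF. The third member, CDKN1C, was near 3 CPM and not called (0.13, 95% interval -0.23 to 0.48).

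Among the sestrins, which curb mTORC1, SESN2 rose by 0.57 ± 0.12 on the log2 scale (adjusted p = 0.00657) and SESN3 fell by 0.31 ± 0.08 (adjusted p = 0.0182). The SESN3 call was lost without DMSO library 2 (adjusted p = 0.0600), DMSO library 4 (0.0674) or AF library 2 (0.0703). Relative to SESN1, the mean log2 ratio differed by -0.38 for SESN3 and by 0.52 for SESN2.

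GADD45G rose by 0.39 ± 0.12 (adjusted p = 0.0421), a call lost under 12 of the 19 alternatives, among them leaving out any of 6 libraries, for example DMSO library 2 (0.123), upper quartile scaling, no low-count filter, summed name stems, library totals and protein-coding totals. GADD45B was not called (0.25 ± 0.11, adjusted p = 0.125). Relative to GADD45A, the mean log2 ratio differed by 0.32 for GADD45G and by 0.18 for GADD45B. BAK1, the other pore-forming effector beside BAX, stood at 62.7 ± 2.39 and 67.1 ± 4.40 CPM (0.10, 95% interval -0.03 to 0.22), and its mean log2 ratio to BAX differed by 0.30. BCL2L11, the gene of the BH3-only protein BIM, was not called (0.10 ± 0.10). TNFRSF10A, the other TRAIL death receptor, rose by 0.71 ± 0.17 from 3.00 ± 0.335 CPM. The log2 ratio of TNFRSF10B to FAS differed by 0.49, with 2 of 4 AF libraries above all DMSO.

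Downstream of FAS, 4 of 8 tested genes rose and 0 fell, where 7.62% of all genes tested were called higher and 7.81% lower. CFLAR, an inhibitor of caspase 8 at death receptors, rose by 0.34 ± 0.07 on the log2 scale (adjusted p = 0.00578), CASP8 by 0.31 ± 0.07, FAF1 by 0.20 ± 0.05 and CASP10 by 0.35 ± 0.11. The CASP8 call was lost without DMSO library 2 (adjusted p = 0.0536), that of FAF1 without AF library 1 (0.0516) or AF library 3 (0.0519), and that of CASP10 under 9 of the 19 alternatives, among them leaving out any of 5 libraries, for example DMSO library 3 (0.116). The ligand gene FASLG, with 1 to 7 counts per library, was too low to test.

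CDKN1A was not called, but several cell cycle genes whose products p21 acts on or holds back fell. Of 14 tested, 6 were lower and 0 higher, where 7.81% of all genes tested were called lower and 7.62% higher, and the median log2 fold change was -0.13. The cyclin E genes CCNE1 and CCNE2 fell by 0.72 ± 0.16 and 0.50 ± 0.12 on the log2 scale (edgeR adjusted p = 0.00703 and 0.0131), CDK4 by 0.28 ± 0.07 and E2F1 by 0.45 ± 0.11. The E2F1 call was lost without AF library 3 (adjusted p = 0.0504). CCNE1 fell by 0.26 within libraries 1 and 4 and by 1.15 within libraries 2 and 3. The proliferation marker MKI67 fell by 0.31 ± 0.08 and TOP2A was not called (-0.02 ± 0.07). The part of a changed share of cycling cells in these results was not tested.

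Several factors outside the p53 family that are known to act on such genes were higher. Of 29 tested, 11 rose and 2 fell, where 7.62% of all genes tested were called higher and 7.81% lower, and the median log2 fold change was 0.17. The integrated stress response factors ATF4, DDIT3 (CHOP) and ATF3 rose by 0.29 ± 0.07, 0.80 ± 0.10 and 1.14 ± 0.16 (edgeR adjusted p = 0.0102, 0.000119 and 0.000335). DDIT3 ranged from 103 to 140 CPM in DMSO and from 177 to 234 CPM in AF. ATF3 ranged from 19.6 to 34.1 CPM in DMSO and from 47.2 to 65.6 CPM in AF. In DMSO, libraries 1 and 4 were the higher ones for DDIT3 and ATF3, as they were for GDF15, PMAIP1 and BBC3. This was not particular to these genes, since the same held for FOXO3, SESN2, CDKN1B and TNFRSF10B among others. ATF4 did not follow it, at 493, 448, 433 and 445 CPM in DMSO libraries 1 to 4.

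The immediate early factors EGR1 and NR4A1 rose by 1.87 ± 0.21 and 1.75 ± 0.27 from low levels of 2.12 ± 0.803 and 0.556 ± 0.155 CPM. FOXO3 rose by 0.33 ± 0.09 (adjusted p = 0.0194), a call lost without DMSO library 2 (0.0730) or DMSO library 3 (0.0672). CEBPA, a myeloid lineage factor, fell by 0.34 ± 0.07. Whether any of these factors acted on GDF15 or PMAIP1 was not tested. The calls of DDIT3, ATF3, EGR1, NR4A1, TNFRSF10B and PLK2 held under all 19 alternatives. Those of PRKDC, TP73, TP53INP1, CCNE1 and CCNE2 were lost in libraries 1 and 4 alone, and those of TP53BP2, BTG1, DGKA, CDKN1B, SESN2, TNFRSF10A, CFLAR, CDK4, CEBPA and ATF4 there and with library totals alone.

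Among 5 tested noncoding genes at the 10 loci or in the p53 pathway, 1 rose and 0 fell, where 15.4% of all genes tested were called. NEAT1, the scaffold RNA of paraspeckles, rose from 86.6 ± 20.8 to 125 ± 24.1 CPM (SD, n = 4; log2 fold change 0.53 ± 0.15; edgeR adjusted p = 0.0264), with overlapping groups. In contrast to GDF15 and PMAIP1, its DMSO libraries 2 and 3 were the higher ones. The NEAT1 call was lost without any of 4 libraries (DMSO 1 or 4, AF 2 or 3), with DESeq2 and with library totals alone.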

How the data were processed

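The authors deposited 1 table of raw counts per gene for the 8 libraries, whole numbers with no normalisation. Poly-A libraries were made with a stranded preparation from 250 ng of total RNA, per the labels' protocols. Per the submitters' processing notes, the tools were STAR 2.6.1d, featureCounts and Subread 1.6.3 on GRCh38. Annotation and strand setting: not given in the sources used here. Columns were matched to samples by title.

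The counts were fitted with edgeR 4.0.16 in R 4.3.3 (TMM, filterByExpr, glmQLFit, glmQLFTest, two-sided, Benjamini-Hochberg over 17535 genes, threshold 0.05), auranofin against vehicle with no block and 6 residual degrees of freedom. On simulated counts for these 17535 genes the fit called 32% of 50 genes changed by 0.4 on the log2 scale, 90% of 50 changed by 0.7 and 0 of 50 changed by 0.2. The simulation left 17335 genes unchanged, while the real fit called 2705. The adjustment is stricter when fewer genes change, so these shares do not give the power of the real fit. Each library entered singly, because the labels do not say that any share a culture. No 2 libraries agreed within sampling noise (chi-square per degree of freedom 2.93 or more), which does not show that they were separate cultures. Alternatives were DESeq2 1.42.0, other scalings and filters, a block, summed libraries and left-out libraries. Positions come from GENCODE 29.

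The 10 genes, the lists and the rule for named genes (all 10, up to 4 called genes per list by p, 1 called gene against the majority, and others by name) were chosen with earlier results of these data known. Of those the rule names, some lineage markers are not described, 1 gene of the p53 pathway is not reported here, and FAS-AS1 was not matched.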

Additional observations from a re-analysis of the deposited data

Results flagged for a closer look

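Within groups of 4 libraries, 5 values stood far from the other 3, by Dixon's gap test, among 88 groups examined. Chance gives about 1 in 20 such groups. None belonged to the 10 p53-linked genes. DMSO library 4 was low for TP73 (6.62 CPM), AF library 1 was high for NR4A1 (2.597 CPM) and for GADD45B (12.1 CPM), AF library 4 was low for CEBPA (109.5 CPM) and AF library 2 was high for GADD45G (6.40 CPM).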

How the results depend on the processing

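GDF15 and PMAIP1 kept their direction under all 19 alternatives and their call under all but library totals alone and libraries 1 and 4 alone. Under each of these 0 of the 10 genes were called, against 2. Library totals alone also moved the set's median log2 fold change to -0.077 and gave 3 called p53 targets outside the set, against 13. Libraries 1 and 4 alone gave 2, and libraries 2 and 3 alone gave 21, a division that was taken from these counts. Over the whole table library totals alone called 883 genes, libraries 1 and 4 alone 212 and libraries 2 and 3 alone 5354, against 2705. The change was thus not particular to p53 targets. GDF15, PMAIP1, BBC3 and BAX, 4 of the 10 genes, were called in libraries 2 and 3 alone. BAX was the 1 gene called lower there and with DESeq2, upper quartile scaling, at least 10 counts in all libraries, a replicate block and, added after the data were seen, totals of protein-coding counts. Leaving out 1 library gave 8 to 15 called p53 targets outside the set, and 1616 to 2964 called genes in all. With the replicate number as a block 4 of the 10 genes were called and 4191 genes in all, against 2705. Same-numbered libraries had correlations of their deviations of 0.09, 0.13, 0.03 and 0.19. For libraries 1, 2 and 4 the same-numbered library of the other group gave the highest value. DMSO library 3 correlated slightly better with AF library 2 (0.0305) than with AF library 3 (0.0288). The main fit has no block because no label says that the numbers mark a shared culture. Whether they do was not tested. The call of BBC3 depended on the setting, passing under 6 of 19. The cause of these changes was not tested. Depth limits FAS, TP63, FASLG and DINOL.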
